A study of Mus musculus with 12 samples.

Results

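Elastic fibres are built on fibrillin microfibrils, and 10 genes of these structures were followed here across 4 sorted stromal populations of mouse bone and bone marrow. The genes were chosen by name, as the genes of one structure: the fibrillins Fbn1 and Fbn2, the microfibril-associated proteins Mfap2, Mfap4 and Mfap5, the fibulins Fbln1, Fbln2, Fbln5 and Efemp2 (fibulin-4), and elastin itself, Eln. They are 10 of the 49585 Ensembl gene ids counted in the files, and all 10 passed the filter on low counts. The list was drawn up with earlier results of these data known. RNA sequencing had been done on 12 libraries of 2000 sorted cells each, 3 per population, from wild-type C57BL/6 male mice of 8 to 10 weeks at steady state. All 4 populations lacked CD45, Ter119 and CD31, the surface markers of blood, erythroid and endothelial cells. Itga8+ MSCs (Itga8+Alcam+Sca-1-), Itga8- BLCs (bone-lining cells, Itga8-Alcam+Sca-1-, labelled osteoblasts) and Sca-1+ MSCs (Alcam-Sca-1+) came from collagenase-digested bone fragments. CD51+CD140a+ MSCs came from flushed marrow that was digested with another enzyme mix, so the isolation and the population cannot be told apart in any comparison with them. Whether the 3 libraries of a population were 3 animals or pools is not given in the sources used here, and p-values therefore measure only the spread between these libraries.

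Microfibrils are beaded filaments of polymerised fibrillin. Small associated proteins sit on them, and in elastic tissues they receive tropoelastin, the soluble product of Eln, which fibulins deliver and lysyl oxidases cross-link. Fibrillin-1 predominates in the adult and fibrillin-2 in the embryo, and microfibrils also occur without elastin, as in the tendon, the periosteum and the eye. Microfibrils hold latent growth factors of the TGF-beta and BMP families and are bound by cells through integrins that read the tripeptide Arg-Gly-Asp.

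The integrin subunit alpha8, the antigen used to sort Itga8+ MSCs, belongs to this Arg-Gly-Asp-reading group, so the coding sequences of the family were searched for the tripeptide. In 1 GENCODE transcript per gene, 6 of 10 members encoded it: Mfap4, Mfap5, Fbn1, Fbn2, Fbln2 and Fbln5. Mfap2, Eln, Fbln1 and Efemp2 did not. Among 21782 protein-coding genes with a coding sequence, 7.12% encoded the tripeptide at least once, and a tripeptide in the translated letters is not shown to be a working binding site. The coding windows below are 30 bases of GENCODE M21 transcript on GRCm38, 5′ to 3′, with the codons for Arg-Gly-Asp in capitals, and they show that 4 of these members encode the same tripeptide with different codons and neighbours.
Mfap4: gcctctgggatcCGGGGAGATgctctggag
Mfap5: gtcagtggtcaaCGCGGAGATgatgtgcct
Fbn1: gatatccgacccCGGGGAGACaatggagat
Fbln5: cctgaggcttgtCGTGGGGACatgatgtgt
The Mfap4 window lies on the plus strand between 61485784 and 61486045 of chromosome 11 and crosses an exon junction, with the arginine at residue 28 of 257. The Mfap5 window also crosses a junction, between 122515365 and 122520589 of chromosome 6 on the plus strand, with the arginine at residue 30 of 164. Both therefore sit near the start of a short protein. The Fbn1 window, chr2:125345964-125345993 on the minus strand, and the Fbln5 window, chr12:101809918-101809947 on the minus strand, each lie in 1 exon, at residue 1543 of 2873 and residue 54 of 448. Fbn2 encoded the tripeptide at 2 places.

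The libraries held 17580677 to 31332475 counts, so 3 counts were worth 0.0822 to 0.179 CPM (counts scaled to a common library size, with TMM factors). Itga8 was at 35.1 to 199 CPM in Itga8+ MSCs and 0.398 to 4.17 CPM in Itga8- BLCs, and Ly6a, which encodes Sca-1, was at 611 to 659 CPM in Sca-1+ MSCs and at most 35.6 CPM elsewhere. Alcam transcript was at 1.29 to 5.79 CPM in the Alcam+ populations and at 3 counts or fewer in every CD51+CD140a+ library. The 9 osteoblast markers summed to 36718 to 115058 CPM in Itga8- BLCs and to 696 to 7978 CPM in Itga8+ MSCs. Their sum was 15642 to 19487 CPM in Sca-1+ MSCs and 8276 to 17477 CPM in CD51+CD140a+ MSCs. Most of it was Col1a1 in the former (mean 17260 CPM) and Ibsp in the latter (mean 10126 CPM). Bglap was at means of 0.716 and 6.19 CPM in these populations, against 3294 CPM in Itga8- BLCs. Itga8+ replicate 2 stood apart in these sums: its osteoblast sum was the 696 CPM, against 6963 and 7978 CPM. Most of that difference was Col1a1, at 213 CPM in replicate 2 against 5953 and 7215 CPM in replicates 1 and 3. Sp7, Alpl, Dmp1 and Phex were also lowest in replicate 2, whereas Bglap (14.9 CPM) and Bglap2 (10.2 CPM) were highest there. Runx2 and Ibsp in replicate 2 lay between replicates 1 and 3. The 4 erythroid markers summed to 1095 CPM in replicate 2, against 101 and 87.3 CPM. In CPM, Itga8+ replicate 2 was the highest of its group for Mfap2, Mfap4, Mfap5 and Efemp2 and the lowest for Eln, Fbln1 and Fbln2. On the TPM scale, explained below, it was the lowest for Efemp2 (206 TPM, against 251 and 233 TPM). For Mfap4, replicate 3 was the highest on that scale (861 TPM, against 768 TPM in replicate 2). The part of these differences between libraries in the results was not tested, and neither was that of fewer cells of a type against less RNA per cell, which bulk libraries cannot separate.

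Each pair of populations was compared in an edgeR quasi-likelihood fit over 18578 genes, and a gene was called at an FDR under 0.1 with a fold change above 2. Of the 60 values (10 members in 6 comparisons), 40 were called, and 34 of the 40 were also called when each library was left out in turn. Itga8+ MSCs exceeded Itga8- BLCs in 5 of 10 members and were lower in none, beside 1.69% of all genes tested called higher and 2.17% called lower. The count of 0 lower members in edgeR was also 0 at an unadjusted p under 0.05, with DESeq2 and with limma-trend. The median log2 fold change of the members was 2.16 there, against 0.08 over all genes tested. Mfap4, among these 5 members, had been picked by the study from RNA sequencing of these populations as high in Itga8+ MSCs. The count and the median are therefore not independent of that choice. Against Sca-1+ MSCs, Itga8+ MSCs were higher in 2 members and lower in 4 (12.9% and 8.94% of all genes tested). Against CD51+CD140a+ MSCs they were higher in 5 and lower in 3 (21.2% and 14.3%), with member medians of -0.28 and 0.99. Itga8- BLCs were higher than Sca-1+ MSCs in 2 members and lower in 6 (14.6% and 12%), with a median of -2.78 against 0.12 over all genes. They were higher than CD51+CD140a+ MSCs in 3 and lower in 3 (20.6% and 14.9%), and Sca-1+ MSCs were higher than CD51+CD140a+ MSCs in 4 and lower in 3 (11.3% and 9.31%), with member medians of 0.49 and 0.67. The comparisons share populations and are not independent of each other.

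**Figure D1:**
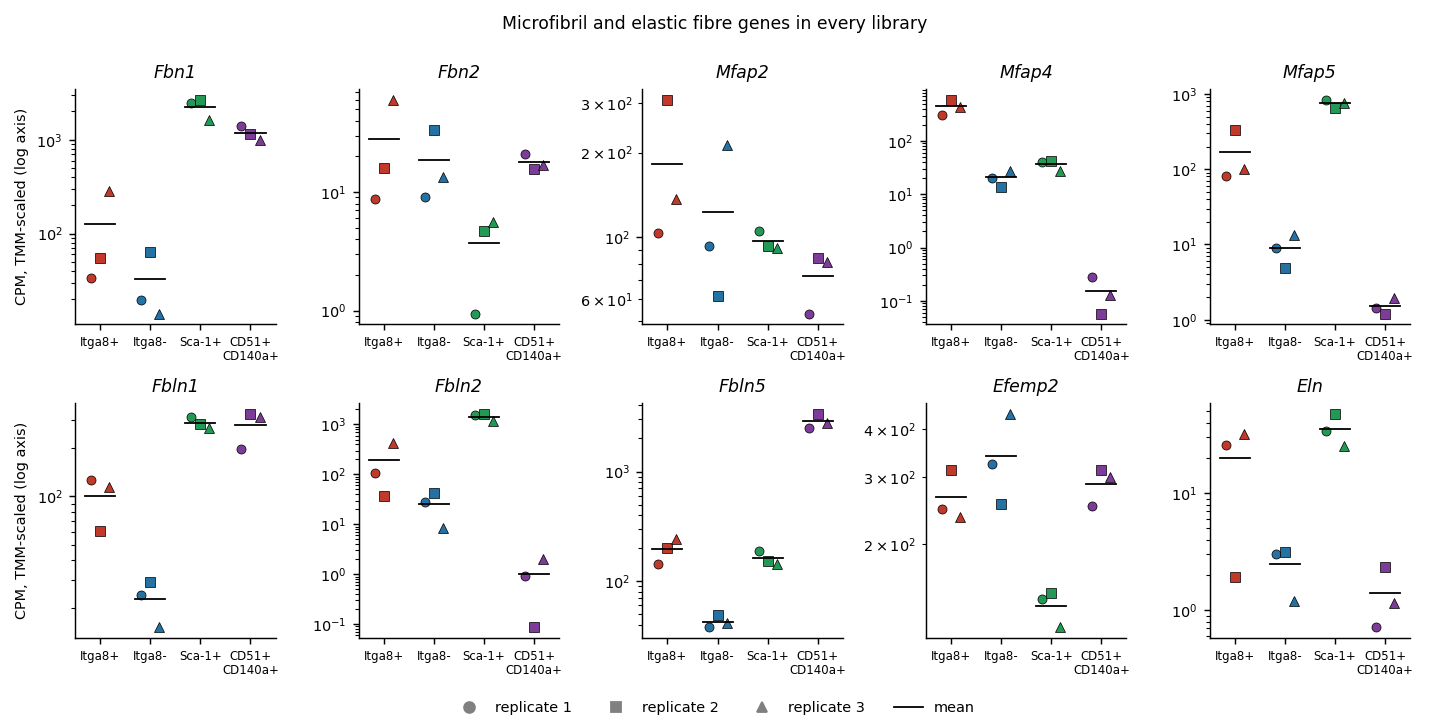
Level of each member in every library, in TMM-scaled CPM on a log axis that differs between panels. Symbols are replicates 1 to 3, colours are populations and bars are means of 3 libraries; Mfap4 is highest in Itga8+ MSCs (310 to 594 CPM), Mfap5, Fbn1 and Fbln2 in Sca-1+ MSCs, and Fbln5 in CD51+CD140a+ MSCs (2494 to 3373 CPM).

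Fbn1 (ENSMUSG00000027204, chr2:125300594-125507993, minus strand), the fibrillin that forms adult microfibrils, was high in Sca-1+ and CD51+CD140a+ MSCs and low in both Alcam+ populations. It was at 2464, 2665 and 1635 CPM in Sca-1+ MSCs, at 1395, 1154 and 989 CPM in CD51+CD140a+ MSCs, at 33.6, 54.9 and 287 CPM in Itga8+ MSCs, and at 19.5, 64.2 and 14.0 CPM in Itga8- BLCs. The pair of high populations did not overlap with the pair of low ones, whereas Itga8+ and Itga8- libraries overlapped and Itga8+ replicate 3 lay far above the rest of its group. Itga8+ MSCs were below Sca-1+ MSCs for Fbn1 by a log2 fold change of -4.17 (SE 0.82, edgeR FDR 0.00558) and below CD51+CD140a+ MSCs by -3.24 (SE 0.78, FDR 0.00922). Without Itga8+ replicate 3 these values were -5.72 and -4.74. In Itga8- BLCs the differences were -6.11 (SE 0.90, FDR 0.000713) and -5.18 (SE 0.86, FDR 0.000885), and without Itga8- replicate 2 they were -7.11 and -6.14. Sca-1+ against CD51+CD140a+ MSCs (0.93, SE 0.72, FDR 0.472) did not pass, although their libraries did not overlap. Itga8+ MSCs against Itga8- BLCs (1.94, SE 0.75, FDR 0.282) did not pass either, and the value was 0.44 without Itga8+ replicate 3 and 2.92 without Itga8- replicate 2. Of the exon length of Fbn1, 20.1% lies opposite exons of Gm9913 on the other strand, the library kit does not mark strand, and the reads of the overlapping genes cannot be told apart.

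Fbn2 (ENSMUSG00000024598, chr18:58008623-58210487, minus strand), the fibrillin best known from development, was lowest in Sca-1+ MSCs, where Fbn1 was highest. It was at 0.941, 4.68 and 5.57 CPM there, at 8.71, 15.8 and 60.1 CPM in Itga8+ MSCs, at 9.01, 33.4 and 13.4 CPM in Itga8- BLCs, and at 21.1, 15.7 and 16.9 CPM in CD51+CD140a+ MSCs. Every Sca-1+ library lay below every other library, and the other 3 populations overlapped. Sca-1+ MSCs were passed by Itga8+ MSCs (log2 fold change 2.91, SE 0.80, edgeR FDR 0.0298), by Itga8- BLCs (2.31, SE 0.78, FDR 0.0548) and by CD51+CD140a+ MSCs (Sca-1+ minus CD51+CD140a+, -2.26, SE 0.78, FDR 0.0711). The first value dropped to 1.66 (FDR 0.0907) without Itga8+ replicate 3. The second was not called without Itga8- replicate 2 (1.54, FDR 0.173) or without Sca-1+ replicate 1 or 2 (FDR 0.146 and 0.114), and the last was not called without any 1 of its 6 libraries, at FDR 0.103 to 0.192.

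The balance between the fibrillins separated all 4 populations. As a share of the summed fibrillin TPM (counts per exon length, scaled to a common total, which allows levels to be compared between genes), Fbn2 made up 19.2%, 20.9% and 16.1% in Itga8+ MSCs and 29.8%, 32.3% and 46.8% in Itga8- BLCs. It made up 0.0350%, 0.161% and 0.312% in Sca-1+ MSCs and 1.37%, 1.23% and 1.54% in CD51+CD140a+ MSCs. The means were 18.7% ± 2.44, 36.3% ± 9.15, 0.169% ± 0.139 and 1.38% ± 0.157 (SD, n = 3 libraries each), and no pair of populations overlapped. An exact two-sided permutation test gave p = 0.1 for each of the 6 pairs, which is the smallest that 3 libraries against 3 allow. Itga8+ replicate 3, with an Fbn1 level 8.55 times that of replicate 1 and an Fbn2 level 6.90 times it, held the lowest Fbn2 share of its group at 16.1%.

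Mfap4 (ENSMUSG00000042436, chr11:61485431-61488900, plus strand) encodes a fibrinogen-related protein that binds fibrillin-1 and tropoelastin, and of the members it had the largest difference between Itga8+ MSCs and Itga8- BLCs. It was at 310, 594 and 443 CPM in Itga8+ MSCs, at 20.6, 13.6 and 27.9 CPM in Itga8- BLCs, and at 40.2, 41.7 and 26.7 CPM in Sca-1+ MSCs. In CD51+CD140a+ MSCs it was at 0.274, 0.0574 and 0.129 CPM, from 10, 2 and 4 counts. The Itga8+ libraries lay above all others, and the Itga8- and Sca-1+ libraries overlapped. Mfap4 was higher in Itga8+ MSCs than in Itga8- BLCs by 4.44 (SE 0.47, edgeR FDR 0.000485) and than in Sca-1+ MSCs by 3.63 (SE 0.45, FDR 0.000370) on the log2 scale. Against CD51+CD140a+ MSCs the difference was 11.45 (SE 0.65, FDR 9.45e-07) and, without CD51+CD140a+ replicate 1, which held 10 of the counts, 12.17, whereas limma-trend gave 10.65. Itga8- BLCs and Sca-1+ MSCs also exceeded CD51+CD140a+ MSCs, by 7.01 and 7.82 (7.73 and 8.54 without that library, 6.21 and 7.05 with limma-trend), and did not pass against each other (-0.81, SE 0.41, FDR 0.178).

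Among the genes with the pattern most like that of Mfap4 were Scx and Tnmd, of the tendon lineage, whereas other tendon markers followed it less closely. Over 9146 genes with a mean of at least 10 CPM, the genes whose log2(CPM + 1) followed that of Mfap4 most closely over the 12 libraries included Scx, the transcription factor of the tendon lineage (Pearson r 0.991), and Tnmd, which encodes tenomodulin (r 0.988), before Sparcl1 (0.979) and Gm15677 (0.971). These correlations describe 12 libraries in 4 populations. Scx was at 131, 441 and 296 CPM in Itga8+ MSCs and at 3 counts or fewer in each CD51+CD140a+ library. In CPM, Itga8+ replicate 2 was the highest for Scx and replicate 1 the lowest, as for Mfap4. On the TPM scale Mfap4 was highest in replicate 3. Fmod (fibromodulin), the most abundant of the 6 tendon markers, was at 9103, 5532 and 12459 CPM in Itga8+ MSCs, lowest in replicate 2, and overlapped with Itga8- BLCs (3393 to 5791 CPM) and Sca-1+ MSCs (4225 to 6373 CPM). Kera and Mkx in Itga8+ MSCs overlapped with Sca-1+ MSCs. The 6 tendon markers together summed to 12898 to 23544 CPM in Itga8+ MSCs, 3774 to 6391 CPM in Itga8- BLCs, 6270 to 9347 CPM in Sca-1+ MSCs and 83.4 to 113 CPM in CD51+CD140a+ MSCs. All 6 were above 3 counts in Itga8+ libraries, whereas Scx and Kera were at or under 3 counts throughout the CD51+CD140a+ libraries. The 6 cartilage markers summed to 34538 to 128424 CPM in Itga8+ MSCs 18290 to 76463 CPM in Itga8- BLCs, which overlapped with them, and 14789 to 17261 CPM in Sca-1+ MSCs, and their part and that of the tendon markers in the Mfap4 result was not tested.

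Mfap5 (ENSMUSG00000030116, chr6:122505845-122529290, plus strand), the glycoprotein MAGP-2 that binds fibrillins, was the only member called in all 6 comparisons. It was at 835, 659 and 755 CPM in Sca-1+ MSCs, at 80.3, 328 and 102 CPM in Itga8+ MSCs, at 9.06, 4.91 and 13.3 CPM in Itga8- BLCs, and at 1.42, 1.20 and 1.97 CPM in CD51+CD140a+ MSCs. No pair of populations overlapped. Sca-1+ MSCs exceeded Itga8+ MSCs (Itga8+ minus Sca-1+, log2 fold change -2.14, SE 0.52, edgeR FDR 0.0167), Itga8+ MSCs exceeded Itga8- BLCs (4.23, SE 0.57, FDR 0.00193), and these exceeded CD51+CD140a+ MSCs (2.56, SE 0.54, FDR 0.00407). Itga8+ replicate 2 was 4.08 times as high as replicate 1, and without it the first and second values were -3.06 and 3.35. The ends of the order, Sca-1+ against CD51+CD140a+ MSCs, differed by 8.93 (SE 0.71, FDR 5.06e-06). The 6 markers of adventitial fibroblasts, Ly6a among them, summed to 2839 to 3614 CPM in Sca-1+ MSCs and to 104 to 876 CPM in the other libraries. Their part in the Mfap5 result was not tested.

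Mfap2 (ENSMUSG00000060572, chr4:141010418-141015984, plus strand), the related glycoprotein MAGP-1, was the most even of the microfibril genes and was called in 1 of 6 comparisons. It was at 103, 309 and 137 CPM in Itga8+ MSCs, at 93.2, 61.4 and 213 CPM in Itga8- BLCs, at 105, 93.0 and 91.5 CPM in Sca-1+ MSCs, and at 53.3, 83.9 and 81.2 CPM in CD51+CD140a+ MSCs. The endosteal populations overlapped with each other, and the level in the highest Itga8+ library was 2.99 times that in the lowest. The call, Itga8+ against CD51+CD140a+ MSCs (log2 fold change 1.33, SE 0.49, edgeR FDR 0.0582), was lost without Itga8+ replicate 2 (0.75, FDR 0.230) and without each of the CD51+CD140a+ libraries (FDR 0.171 at most, all above 0.1).

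As shares of their summed TPM, the 3 microfibril-associated genes were led by Mfap4 in Itga8+ MSCs, by Mfap5 in Sca-1+ MSCs and by Mfap2 in the other populations. Mfap4 held 56.4% ± 8.04 of the sum in Itga8+ MSCs (SD, n = 3 libraries, range 47.2% to 62.0%), 10.4% ± 2.58 in Itga8- BLCs, 6.16% ± 1.53 of that of Sca-1+ MSCs, and 0.154% ± 0.146 of that of CD51+CD140a+ MSCs. Mfap5 held 67.8% ± 2.58 in Sca-1+ MSCs, 9.97% ± 3.46 in Itga8+ MSCs, 2.34% ± 0.449 in Itga8- BLCs and 0.727% ± 0.216 in CD51+CD140a+ MSCs. Mfap2 held 87.2% ± 2.96 in Itga8- BLCs and 99.1% ± 0.344 in CD51+CD140a+ MSCs, beside 33.7% ± 4.58 for Itga8+ MSCs and 26.0% ± 1.09 for Sca-1+ MSCs. The Mfap4 share of Itga8+ MSCs and the Mfap5 share of Sca-1+ MSCs lay above those of all other libraries, each with an exact permutation p of 0.1 against every other population (adjusted p = 0.12 for Mfap4 and 0.1 for Mfap5 over 6 pairs). The Mfap4 shares of Itga8- BLCs and Sca-1+ MSCs overlapped (exact permutation p = 0.2).

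**Figure D2:**
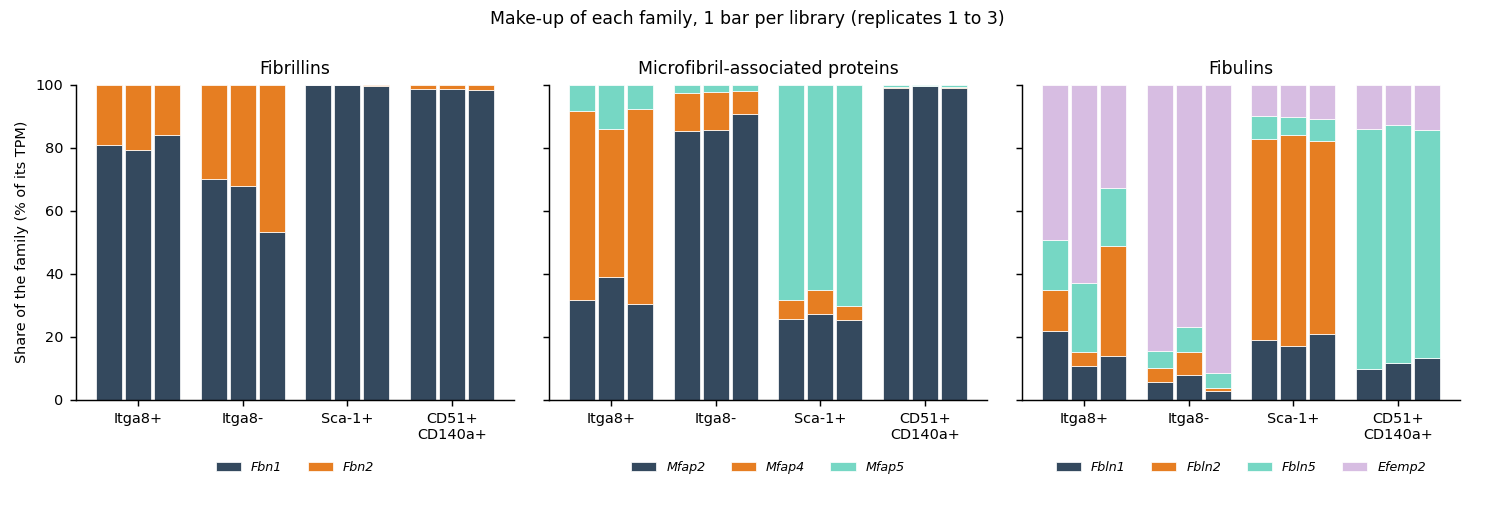
Share of each gene in the summed TPM of its family, in percent, with 1 stacked bar per library in the order of replicates 1 to 3. Fbn2 reaches 16.1% to 20.9% of fibrillin TPM in Itga8+ MSCs and at most 1.54% in Sca-1+ and CD51+CD140a+ MSCs, and the leading fibulin is Efemp2 in Itga8- BLCs, Fbln2 in Sca-1+ MSCs and Fbln5 in CD51+CD140a+ MSCs.

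Among the fibulins, Fbln5 (ENSMUSG00000021186, chr12:101746565-101819055, minus strand), which binds tropoelastin and is needed for elastic fibre assembly, was the gene of CD51+CD140a+ MSCs. It was at 2494, 3373 and 2757 CPM there, at 144, 200 and 242 CPM in Itga8+ MSCs, at 187, 154 and 143 CPM in Sca-1+ MSCs, and at 37.8, 49.1 and 41.6 CPM in Itga8- BLCs. CD51+CD140a+ libraries lay above and Itga8- libraries below all others, and the libraries of the remaining populations overlapped. Fbln5 was lower than in CD51+CD140a+ MSCs by -3.88 in Itga8+ MSCs (SE 0.30, edgeR FDR 3.95e-06), -4.15 in Sca-1+ MSCs (SE 0.30, FDR 3.13e-06) and -6.07 in Itga8- BLCs (SE 0.33, FDR 6.50e-07) on the log2 scale. Itga8+ MSCs exceeded Itga8- BLCs (2.19, SE 0.28, FDR 0.00136) whereas Itga8+ against Sca-1+ MSCs did not pass (0.28, SE 0.26, FDR 0.484). The 6 markers of leptin receptor-positive stroma (Lepr, Cxcl12, Kitl, Adipoq, Ebf3 and Foxc1) summed to 44744 to 61188 CPM in CD51+CD140a+ MSCs and to 201 to 740 CPM in the other libraries, and their part in the Fbln5 result was not tested.

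Fbln2 (ENSMUSG00000064080, chr6:91212455-91272540, plus strand) encodes a fibulin of basement membranes and microfibrils, and it was lowest where Fbln5 was highest. It was at 1535, 1652 and 1149 CPM in Sca-1+ MSCs, at 109, 37.6 and 426 CPM in Itga8+ MSCs, at 28.4, 41.6 and 8.30 CPM in Itga8- BLCs, and at 0.904, 0.0860 and 2.00 CPM in CD51+CD140a+ MSCs, from 33, 3 and 62 counts. Itga8+ replicate 3 was 11.3 times as high as replicate 2, and replicate 2 overlapped with the Itga8- libraries. Sca-1+ MSCs exceeded CD51+CD140a+ MSCs by 10.50 (SE 1.35, edgeR FDR 0.000168) and Itga8- BLCs by 5.79 (Itga8- minus Sca-1+, -5.79, SE 1.10, FDR 0.00350) on the log2 scale. Without CD51+CD140a+ replicate 3 the first value was 11.49. Itga8+ MSCs were higher than CD51+CD140a+ MSCs (7.58, SE 1.20, FDR 0.000665), by 6.21 without Itga8+ replicate 3 and 8.57 without CD51+CD140a+ replicate 3, and Itga8- BLCs were higher by 4.71 (SE 1.06, FDR 0.00606) or by 5.70 without the latter library. Itga8+ and Sca-1+ libraries did not overlap and differed by -2.92 (SE 0.96, FDR 0.0599). Without Itga8+ replicate 1 or 2 or any 1 of the Sca-1+ libraries the value was -2.45 to -3.06 and was not called (FDR 0.105 to 0.152), and without Itga8+ replicate 3 it was -4.33. Itga8+ MSCs against Itga8- BLCs did not pass (2.87, SE 0.96, FDR 0.190), and was 1.498 (FDR 0.436) without Itga8+ replicate 3 and 3.37 (FDR 0.0643), then called, without Itga8+ replicate 2.

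Fbln1 (ENSMUSG00000006369, chr15:85205949-85286535, plus strand), a fibulin that binds fibronectin and elastin, separated the Alcam+ populations from the others. It was at 314, 284 and 265 CPM in Sca-1+ MSCs, at 198, 328 and 314 CPM in CD51+CD140a+ MSCs, at 126, 60.8 and 115 CPM in Itga8+ MSCs, and at 24.2, 29.2 and 15.2 CPM in Itga8- BLCs. Sca-1+ and CD51+CD140a+ libraries overlapped (0.04, SE 0.34, edgeR FDR 0.978), and otherwise no pair of populations did. Itga8+ MSCs were lower than these by -1.52 (SE 0.35, FDR 0.0125) and -1.48 (SE 0.35, FDR 0.00782) and higher than Itga8- BLCs by 2.13 (SE 0.36, FDR 0.00690) on the log2 scale, a call lost with only both populations fitted (FDR 0.111). The log2 fold change of Itga8- BLCs was -3.65 against Sca-1+ MSCs (SE 0.38, FDR 8.41e-05) and -3.61 against CD51+CD140a+ MSCs (SE 0.38, FDR 3.55e-05).

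Efemp2 (ENSMUSG00000024909, chr19:5473954-5482517, plus strand), which encodes fibulin-4 and brings lysyl oxidase to tropoelastin, had the smallest range of population means, 2.46-fold from lowest to highest. It was at 325, 255 and 440 CPM in Itga8- BLCs, at 252, 314 and 300 CPM in CD51+CD140a+ MSCs, at 247, 314 and 236 CPM in Itga8+ MSCs, and at 144, 149 and 121 CPM in Sca-1+ MSCs. The Sca-1+ libraries lay below all others, and the other populations overlapped. Sca-1+ MSCs were lower than Itga8- BLCs (Itga8- minus Sca-1+, log2 fold change 1.30, SE 0.27, edgeR FDR 0.00539) and CD51+CD140a+ MSCs (-1.06, SE 0.26, FDR 0.0148). The latter call was lost without Sca-1+ replicate 3 or CD51+CD140a+ replicate 2 (-0.98 without the former), where the change dropped below the fold of 2. Itga8+ against Sca-1+ MSCs passed the FDR but not the fold (0.94, SE 0.26, FDR 0.0319), and both without Sca-1+ replicate 2 (FDR 0.0855), where the change just exceeded the fold of 2.

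The leading fibulin was Fbln2 in Sca-1+ MSCs, Fbln5 in CD51+CD140a+ MSCs, and Efemp2 in all libraries of the Alcam+ populations except Itga8+ replicate 3, where it was Fbln2. Efemp2 held 84.3% ± 7.34 of fibulin TPM in Itga8- BLCs and 48.4% ± 15.1 in Itga8+ MSCs (SD, n = 3 libraries), against 10.4% ± 0.456 in the Sca-1+ population and 13.8% ± 0.819 in the CD51+CD140a+ one. Fbln2 held 64.1% ± 2.91 in Sca-1+ MSCs but 0.0297% ± 0.0274 in CD51+CD140a+ MSCs. Fbln5 held 74.8% ± 2.02 in CD51+CD140a+ MSCs and 18.7% ± 3.11, 6.09% ± 1.78 and 6.66% ± 0.781 in Itga8+ MSCs, Itga8- BLCs and Sca-1+ MSCs. Itga8+ MSCs were the least uniform: the Fbln2 share was 12.9%, 4.48% and 35.1% and the Efemp2 share 49.5%, 62.9% and 32.7% in replicates 1, 2 and 3. The shares of Fbln1 ranged only from 2.75% to 21.8% over all 12 libraries.

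Eln (ENSMUSG00000029675, chr5:134702593-134747323, minus strand) encodes tropoelastin and was highest in Sca-1+ MSCs and in a pair of the Itga8+ libraries. It was at 33.7, 47.9 and 25.5 CPM in Sca-1+ MSCs, at 25.6, 1.92 and 32.1 CPM in Itga8+ MSCs, at 3.04, 3.15 and 1.19 CPM in Itga8- BLCs, and at 0.712, 2.35 and 1.16 CPM in CD51+CD140a+ MSCs. In Itga8+ replicates 1 and 3 it was at the level of Sca-1+ MSCs, whereas replicate 2, from 37 counts, lay among the Itga8- and CD51+CD140a+ libraries. Sca-1+ MSCs exceeded CD51+CD140a+ MSCs (log2 fold change 4.66, SE 0.88, edgeR FDR 0.00272, 5.25 without CD51+CD140a+ replicate 2) and Itga8- BLCs (Itga8- minus Sca-1+, -3.85, SE 0.85, FDR 0.00818), in both cases without overlap. Itga8+ MSCs exceeded CD51+CD140a+ MSCs (3.81, SE 0.85, FDR 0.00593, 4.40 without CD51+CD140a+ replicate 2) although replicate 2 overlapped with that group. The call against Itga8- BLCs (3.01, SE 0.82, FDR 0.0905) also held overlapping libraries and was lost without Itga8+ replicate 1 or 3 or any of the Itga8- libraries (FDR 0.173 to 0.293), and with limma-trend (2.32, FDR 0.228), with the replicate number as a block (FDR 0.210) and with only both populations fitted (FDR 0.308). Without Itga8+ replicate 2, the library that overlapped, it was called at 3.56 (FDR 0.00380). Itga8+ and Sca-1+ MSCs (-0.85, SE 0.76, FDR 0.453), and Itga8- BLCs and CD51+CD140a+ MSCs (0.81, SE 0.79, FDR 0.460), did not pass.

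Per length, Eln stayed below the summed fibrillins in every library, but not below each of them: in Itga8+ replicate 1 Eln was at 12.2 TPM against 10.7 TPM for Fbn1 and 2.54 TPM for Fbn2, and it exceeded Fbn2 in every Sca-1+ library. The ratio of Eln TPM to summed fibrillin TPM was 0.921, 0.0414 and 0.140 in Itga8+ MSCs, 0.164, 0.0497 and 0.0678 in Itga8- BLCs, 0.0205, 0.0269 and 0.0233 in Sca-1+ MSCs, and 0.000754, 0.00301 and 0.00173 in CD51+CD140a+ MSCs. Itga8+ and Itga8- libraries overlapped (exact permutation p = 0.7, adjusted p = 0.7), and every other pair of populations was apart, at the smallest p of 0.1 (adjusted p = 0.12). The genes closest to Eln over the 12 libraries included Dnaja4 (Pearson r 0.961), Phtf1 (0.951), Aebp1 (0.949) and Lmna (0.946), none of them a member of the family. For Fbn1 they were Gm9913 (0.995), whose exons lie opposite those of Fbn1, followed by Usp24 (0.987), Lamp2 (0.981), Nr3c1 (0.981) and Plce1 (0.980).

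**Figure D3:**
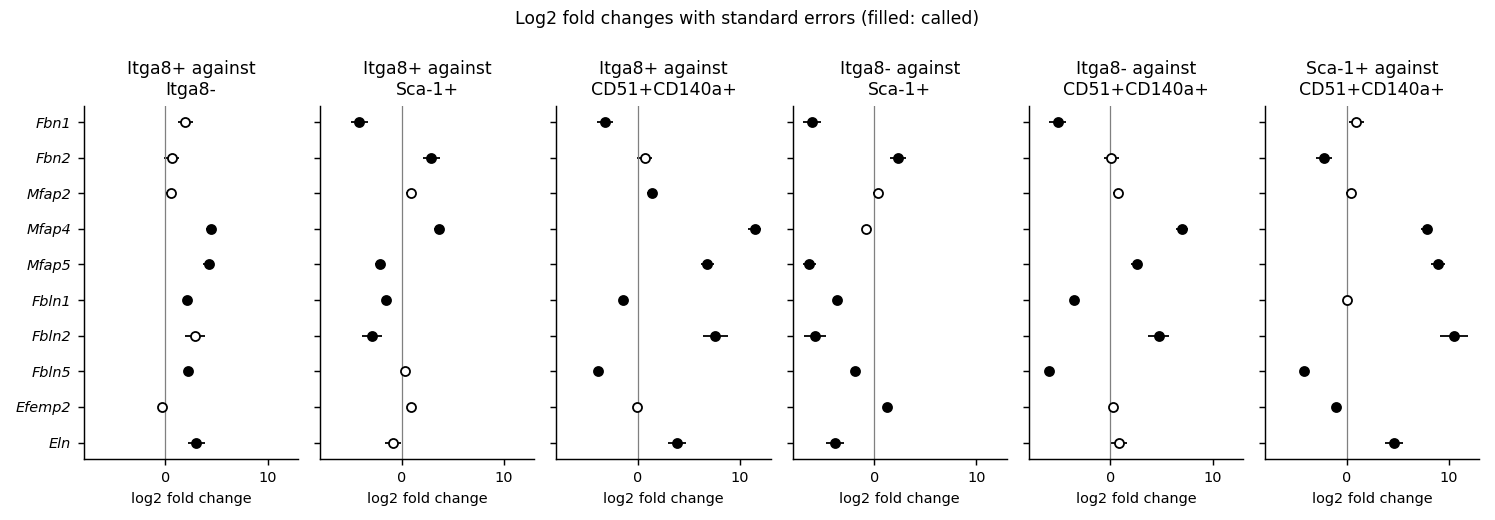
Log2 fold change of each member in the 6 comparisons, first population minus the other, with bars for the standard error; filled circles are called at an edgeR FDR under 0.1 and a fold above 2. Mfap5 is filled in every panel, Mfap2 only in that of Itga8+ against CD51+CD140a+ MSCs, and the largest value is that of Mfap4 in the same panel, at 11.45.

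Summed over the family, the transcript load differed by population. All 10 members together were at 1568, 1970 and 2222 TPM in Itga8+ MSCs, at 648, 510 and 738 TPM in Itga8- BLCs, at 3513, 3329 and 2666 TPM in Sca-1+ MSCs, and at 2748, 3143 and 2702 TPM in CD51+CD140a+ MSCs. Sca-1+ and CD51+CD140a+ libraries overlapped and the rest did not. The fibrillins and microfibril-associated genes alone summed to 1395 ± 310 TPM in Itga8+ MSCs, 326 ± 115 TPM in Itga8- BLCs, 1839 ± 241 TPM in Sca-1+ MSCs and 640 ± 59.3 TPM in CD51+CD140a+ MSCs (SD, n = 3 libraries). The fibulins summed to 516 ± 193, 305 ± 28.4, 1314 ± 211 and 2223 ± 242 TPM in the same order, so that the microfibril sum was the larger in Itga8+ and Sca-1+ MSCs and the fibulin sum in CD51+CD140a+ MSCs.

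**Figure D4:**
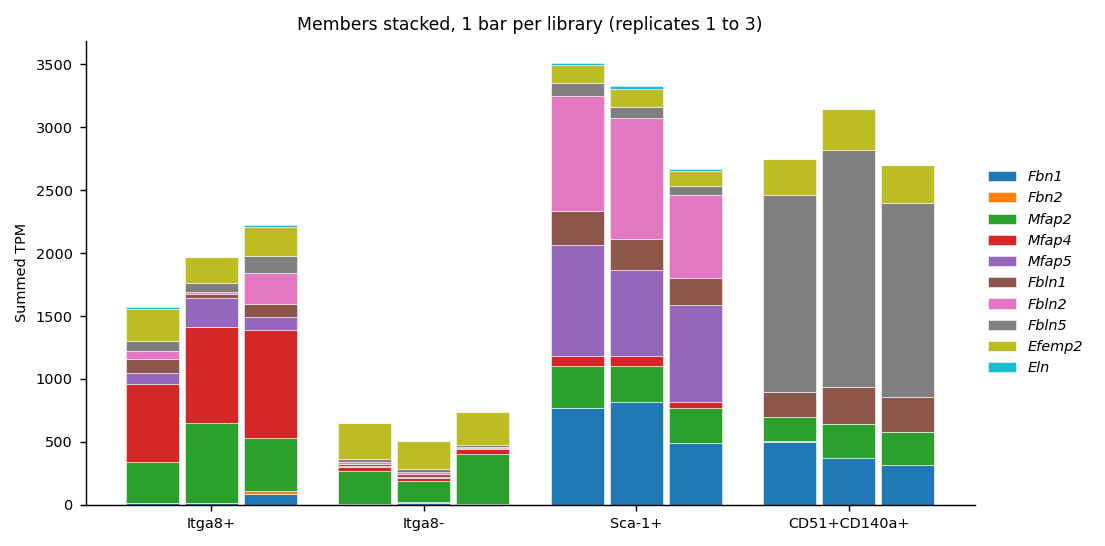
TPM of the 10 members stacked in 1 bar per library, in the order of replicates 1 to 3. The sums are 1568 to 2222 TPM in Itga8+ MSCs, 510 to 738 TPM in Itga8- BLCs, 2666 to 3513 TPM in Sca-1+ MSCs and 2702 to 3143 TPM in CD51+CD140a+ MSCs, and the widest segment is Mfap4 in Itga8+ MSCs and Fbln5 in CD51+CD140a+ MSCs.

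Of the genes that assemble, cross-link or sit on elastic fibres (31 listed, 31 tested), more were called higher than lower in Sca-1+ MSCs against each other population. Not all were highest there: the mean of Lox was 573 CPM in Sca-1+ MSCs and 1110 CPM in Itga8- BLCs. Sca-1+ MSCs were higher than CD51+CD140a+ MSCs in 15 of 31 and lower in 2, with a median log2 fold change of 1.02 against 0 over all genes tested, of which 11.3% were higher and 9.31% lower. Itga8- BLCs were lower than Sca-1+ MSCs in 15 and higher in 2 (median -1.39 against 0.12), beside 12% and 14.6% of all genes. The 2 higher genes became 1 without Itga8- replicate 2 or Sca-1+ replicate 1 or 2. The 2 genes lower in Sca-1+ than in CD51+CD140a+ MSCs became 1 without Sca-1+ replicate 1 or 3 or CD51+CD140a+ replicate 1 or 3 and with the replicate number as a block, and 4 with only both populations fitted. Itga8+ MSCs were lower in 11 and higher in 3 (median -0.61 against 0.16), beside 8.94% and 12.9% of all genes, so that the share of the list called higher was below that of all genes. The 11 became 7 without Itga8+ replicate 1 or Sca-1+ replicate 2 and 16 without Itga8+ replicate 3, and the 3 became 1 without Sca-1+ replicate 1 or 3. Between Itga8+ MSCs and Itga8- BLCs, 3 were higher, Ltbp2, Loxl1 and Adamtsl3, and 1 was lower, Lox (median 0.61 against 0.08). All genes were called at 1.69% and 2.17% there. The Ltbp2 libraries of these populations overlapped (edgeR FDR 0.0969), and Itga8+ replicate 3 was far the highest of its group for Ltbp2 and Adamtsl3. The 3 higher genes became 5 without Itga8+ replicate 2 or with library totals alone, and 7 with DESeq2. With only both populations fitted they became 1, and the count of lower genes was 0. When 1 library was left out, the count of lower genes was 0 to 2. Against CD51+CD140a+ MSCs, Itga8+ MSCs were higher in 13 and lower in 8, beside 21.2% and 14.3% of all genes, and Itga8- BLCs were higher in 10 and lower in 8, beside 20.6% and 14.9% (medians 0.55 and 0.27).

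Values are given for genes of this list called in 1 direction against all 3 other populations and at 50 CPM or more in the population itself, at most 5 for each, a rule that leaves out genes that are low there. Dcn, which encodes the collagen-binding proteoglycan decorin, was at 25092, 23942 and 30491 CPM in Sca-1+ MSCs, and its level in CD51+CD140a+ MSCs, at 567 to 738 CPM, was below that of the other 3 populations. Ltbp4, a latent TGF-beta-binding protein that works with fibulin-5, was at 1423, 1490 and 994 CPM in Sca-1+ MSCs. Its mean was 151 CPM in Itga8+ MSCs, where it was at 53.8, 15.4 and 384 CPM with replicate 3 highest as for Fbn1. In CD51+CD140a+ MSCs, where Fbln5 was highest, Ltbp4 was at 5.09, 5.48 and 6.80 CPM. Vcan (versican) was at 446 to 537 CPM in Sca-1+ MSCs, Emilin2, of the elastin microfibril interface, at 218 to 360 CPM, and Adamtsl4, which binds fibrillin-1, at 168 to 224 CPM. CD51+CD140a+ MSCs were highest for Thsd4, an ADAMTS-like gene that promotes fibrillin-1 assembly, at 316 to 425 CPM against means of at most 16.2 CPM elsewhere, and for the fibrillin-binding protease gene Adamts10, at 44.1 to 80.6 CPM. Lox, the lysyl oxidase that cross-links elastin, was lowest in Itga8+ MSCs at 99.2, 43.4 and 293 CPM, against 519, 1997 and 813 CPM in Itga8- BLCs (log2 fold change -2.93, SE 0.67, edgeR FDR 0.0403). That call was lost without Itga8+ replicate 1 (-2.72) or Itga8- replicate 2 (-2.18) and with only both populations fitted, and was -3.95 (FDR 0.00867) without Itga8+ replicate 3. The Lox call against Sca-1+ MSCs was lost without Itga8+ replicate 1 or 2, without Sca-1+ replicate 2 or 3 and with only both populations fitted (FDR 0.101 to 0.163), and the value was -3.04 (FDR 0.00691) without Itga8+ replicate 3. Calls of Ltbp4, Dcn, Adamtsl4 and Adamts10 in at least 1 comparison were also lost when some 1 library was left out, and those of Adamts10 against Itga8- BLCs and Sca-1+ MSCs with the replicate number as a block (FDR 0.153 and 0.119). The Ltbp4 call of Itga8+ against Sca-1+ MSCs was also lost with only both populations fitted (FDR 0.104).

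Of 8 integrin subunits that pair into Arg-Gly-Asp receptors, Itga8 itself was the subunit called between Itga8+ MSCs and Itga8- BLCs, as the sort selects, beside 1.69% of all genes higher and 2.17% lower, and without Itga8+ replicate 2 the count of 1 became 2. It was also at 57.2, 83.0 and 53.1 CPM in CD51+CD140a+ MSCs, which were not sorted by it, and did not pass against Itga8+ MSCs at 73.5, 35.1 and 199 CPM (0.67, SE 0.73, edgeR FDR 0.505). Those populations were at opposite ends for Mfap4. Sca-1+ MSCs were the highest population for Itgb5 (722, 760 and 648 CPM) and Itgb3 (75.1, 72.6 and 29.9 CPM), which pair with the alphav subunit. Itgb5 was lower than there by -1.43 in Itga8+ MSCs (SE 0.39, FDR 0.0276) and by -2.52 in Itga8- BLCs (SE 0.40, FDR 0.00113). Sca-1+ MSCs were higher than CD51+CD140a+ MSCs in 5 of the 8 subunits and lower in 1, Itga8 (median 2.59 against 0 over all genes tested, of which 11.3% were higher and 9.31% lower), and the 5 became 3 without CD51+CD140a+ replicate 1 and 2 without replicate 2. Against Sca-1+ MSCs, 1 subunit was higher and 2 lower in Itga8+ MSCs, and 0 were higher and 2 lower in Itga8- BLCs, beside 12.9% and 8.94%, and 14.6% and 12%, of all genes. The 2 lower subunits became 6 without Itga8+ replicate 3 and 5 without Itga8- replicate 2, respectively, and 1 without some other libraries or with the replicate number as a block, and limma-trend called 6 for Itga8+ MSCs. The remaining comparisons, with CD51+CD140a+ MSCs, held 1 higher and 0 lower in Itga8+ MSCs and 1 higher and 1 lower in Itga8- BLCs, beside 21.2% and 14.3%, and 20.6% and 14.9%, of all genes, and without Itga8+ replicate 2 the first became 3 and without replicate 3 the 0 became 2. The 1 lower subunit in Itga8- BLCs became 3 without Itga8- replicate 2. At an unadjusted p under 0.05 these edgeR counts of 0 were 0 for Itga8- BLCs against Sca-1+ MSCs and 1 for Itga8+ against CD51+CD140a+ MSCs, and limma-trend called 0 and 2. Calls of Itgb3 in each of its 3 comparisons with Sca-1+ MSCs were lost when some 1 library was left out, those of Itga8+ MSCs and Itga8- BLCs also with the replicate number as a block (FDR 0.101 and 0.108), and DESeq2 gave Itgb3 no adjusted p.

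Of 13 genes of elastin-degrading enzymes and their inhibitors, 12 were tested. Sca-1+ MSCs led for the inhibitors Timp2 (4645, 4872 and 4616 CPM) and Timp3 (1725, 1962 and 2193 CPM), and the calls of both against each other population held without each library in turn. The gelatinase gene Mmp2 was at 66.1, 93.9 and 100.1 CPM in CD51+CD140a+ MSCs and at a mean of 1903 to 2496 CPM in the other populations, a log2 difference of 4.85 for Itga8+ MSCs (SE 0.43, edgeR FDR 1.04e-05). Itga8+ MSCs and Itga8- BLCs were each higher than CD51+CD140a+ MSCs in 6 of 12, Mmp2, Mmp12, Ctsk, Ctss, Elane and Timp1, and lower in 1 and 0 (medians 1.20 and 1.75 against 0.19 and 0.11 over all genes tested), beside 21.2% higher and 14.3% lower, and 20.6% and 14.9%, of all genes. Among these genes Mmp12 was near the floor, at most 2.31 CPM in any library and 0 CPM in every CD51+CD140a+ library. Elane is made by granulocyte precursors, and the 5 blood markers summed to 1848 to 7989 CPM in Itga8+ MSCs and 2807 to 5180 CPM in Itga8- BLCs, against 759 to 1495 CPM in the other populations. The part of blood RNA in these counts was not tested. Against Sca-1+ MSCs, 3 were higher and 2 lower in Itga8+ MSCs and 4 higher and 2 lower in Itga8- BLCs, beside 12.9% and 8.94%, and 14.6% and 12%, of all genes. Sca-1+ MSCs were higher than CD51+CD140a+ MSCs in 4 and lower in 1, beside 11.3% and 9.31% of all genes, and Itga8+ MSCs were higher than Itga8- BLCs in 1, Timp2, and lower in 0, beside 1.69% and 2.17%. The Timp2 difference there (log2 fold change 1.36, SE 0.35, edgeR FDR 0.0668) was not called without Itga8+ replicate 3, without Itga8- replicate 1 or 3, with the replicate number as a block or with only both populations fitted. Without Itga8+ replicate 3 the 3 genes higher in Itga8+ than in Sca-1+ MSCs became 5, as they did with DESeq2. At an unadjusted p under 0.05 the edgeR count of 0 lower genes was 1 for Itga8- BLCs against CD51+CD140a+ MSCs and 0 for Itga8+ MSCs against Itga8- BLCs, DESeq2 called 0 in both, and limma-trend called 1 and 0.

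**Figure D5:**
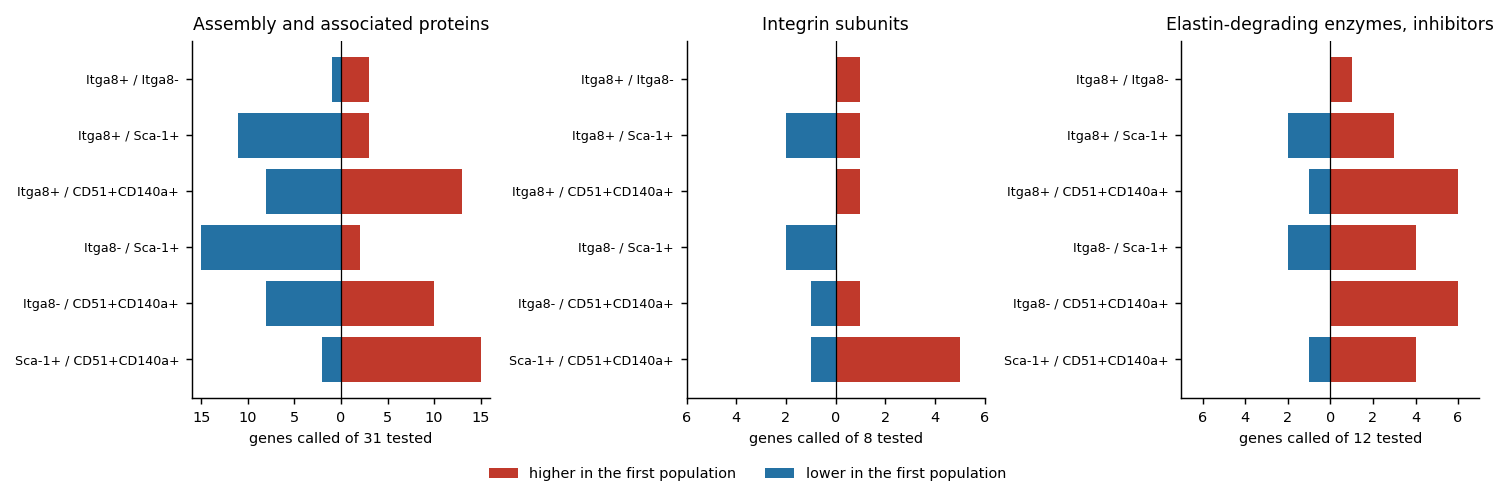
Number of genes of each list called higher (red, to the right) or lower (blue, to the left) in the first population of each pair, of 31, 8 and 12 genes tested. The assembly list has 15 genes on the Sca-1+ side in the comparisons with Itga8- BLCs and CD51+CD140a+ MSCs, and 4 genes called in all between Itga8+ MSCs and Itga8- BLCs.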

How the data were processed

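The 12 deposited tables held counts per Ensembl gene, raw and whole. SMART-Seq v4 cDNA, Nextera XT libraries and an Illumina NextSeq had been used. For the reads, the study's methods name TopHat and Bowtie2, whereas per the labels the authors ran FastQC 0.11.7, Trimmomatic 0.38, HISAT2 2.1.0, SAMtools 1.9 and featureCounts 1.6.3 on mm10. Annotation release and strand setting are not given in the sources used here. Gene names, positions, exon lengths and transcripts came from GENCODE M21 (GRCm38), which lacked 259 of the 49585 ids (at most 0.0163% of a library's counts).

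Genes at 0.5 CPM or more in at least 1 library (18578) were fitted with edgeR 4.0.16 (R 4.3.3) by quasi-likelihood, with TMM scaling and all 12 libraries in 1 fit. P-values were adjusted by Benjamini-Hochberg over all genes tested, and SEs are the log2 fold change over the root of F. DESeq2 1.42.0, limma-trend (limma 3.58.1, prior count 3), other scalings, filters and left-out libraries were alternatives. TPM used the union exon length and no TMM scaling. The script was tested on simulated data. List genes are given values where called in 1 direction in all 3 comparisons of a population and at 50 CPM or more there, at most 5 per list and population. The nearest patterns used log2(CPM + 1). Some genes of those lists and 1 coding window are not reported here. Members and lists were chosen with earlier results of these data known. Precision here is limited by 3 libraries per group.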

Additional observations from a re-analysis of the deposited data

How the results depend on the processing

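Of 840 re-estimates of the 60 member values, 792 kept their direction and their side of the threshold, 29 lost a call, 6 gained one and 13 changed sign, all 13 of them in values that were not called. DESeq2 size factors in edgeR and a filter of 10 counts in 3 libraries changed no member call. In the comparison of Itga8+ MSCs with Itga8- BLCs, 5 members were called, and 3 when only those populations were fitted, where Eln and Fbln1 fell out. DESeq2 called 7 there, with Fbln2 and Fbn1 added, and limma-trend 4, without Eln. With the replicate number as a block (replicate block) 4 members were called in that comparison, Eln being lost, and no other call of a member changed. Deviations of same-numbered libraries from their group means correlated at -0.58 to 0.20 over 18 pairs, 5 of them above 0.1, so the number was not taken to pair the libraries. Some differently numbered Itga8+ and Itga8- libraries correlated more, up to 0.617 for Itga8+ replicate 3 with Itga8- replicate 2. Leaving out 1 library gave 4 to 6 members there.

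Signs turned as follows. With library totals alone, Itga8- BLCs minus CD51+CD140a+ MSCs was -0.11 for Efemp2 and -0.37 for Fbn2, and Sca-1+ minus CD51+CD140a+ MSCs was -0.0931 for Fbln1. For Fbn2 in Itga8- BLCs minus CD51+CD140a+ MSCs, limma-trend gave -0.15 and the replicate block -0.23, and leaving out 1 library gave -0.68 to 0.38. Leaving out 1 library gave -0.61 to 1.35 for Fbn2 in Itga8+ MSCs minus Itga8- BLCs and -0.55 to 1.09 for Fbn2 in Itga8+ minus CD51+CD140a+ MSCs. It gave -0.0054 to 1.23 for Mfap2 in Itga8+ MSCs minus Itga8- BLCs, -0.32 to 0.62 for Mfap2 in Itga8- BLCs minus Sca-1+ MSCs, and -0.16 to 0.17 for Fbln1 in Sca-1+ minus CD51+CD140a+ MSCs.

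Shares computed from CPM, with no length, weigh long transcripts more and moved by more than 1 SD in these cases, in the order Itga8+, Itga8-, Sca-1+ and CD51+CD140a+. The Mfap2 share was 22.0%, 78.8%, 10.98% and 97.6%, and the Mfap5 share 19.3%, 6.24%, 84.9% and 2.12%. The Fbln5 share was 26.5%, 10.1%, 8.00% and 83.5%. The Mfap4 share was 14.9% in Itga8- BLCs and 4.14% in Sca-1+ MSCs. In Sca-1+ MSCs the Fbln1, Fbln2 and Efemp2 shares were 14.3%, 70.9% and 6.83%, and Eln per fibrillin was 0.0157. In CD51+CD140a+ MSCs the Fbln1 and Efemp2 shares were 8.07% and 8.42%. The leading gene of each family in each population was that of the TPM shares. With 3 libraries per population no exact test of a share can pass 0.05, and in CD51+CD140a+ MSCs the levels of Mfap4 and Fbln2 rest on as few as 2 and 3 counts in a library. The causes of the differences between settings were not tested.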
